A study of Mus musculus with 16 samples.

Results

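The 42 genes described here encode proteins that copy DNA and that carry cells through mitosis, and they were followed across nickel doses in a mouse embryonic stem cell line. They were chosen by name, as 25 genes of DNA replication and the G1/S step and 17 genes of G2 and mitosis, and each was found in every one of the 6 deposited tables, which hold 26239 genes. The rule itself uses no measured value. The cells were E14Tg2A, a single wild-type line grown with serum and leukemia inhibitory factor. They received 100, 150 or 200 µM NiCl2 or no nickel and were collected on day 4 or day 6, with passaging and renewed nickel every 2 days. The 8 groups of dose and day had 2 libraries each, 16 in all, and each dose was compared with untreated cells of the same day.

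DNA replication starts when the origin recognition complex, with Cdc6 and Cdt1, loads the Mcm2 to Mcm7 helicase ring onto DNA in G1. Cyclin E activity and firing factors such as Cdc45, the GINS complex and Mcm10 then switch the helicase on, and the polymerases copy DNA with the sliding clamp Pcna, which replication factor C loads. Mitosis is driven by cyclin B with Cdk1 and by the Plk1 and Aurora kinases, and it ends through the anaphase-promoting complex and its activator Cdc20. E2F factors are known for driving the replication genes at G1/S, and the DREAM and B-Myb complexes control many mitotic genes. Mouse embryonic stem cells are known for fast division with a short G1.

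Most of the 42 genes stayed close to their control level at every dose. With an adjusted p under 0.05 as the threshold, 11 genes passed in at least 1 of the 6 comparisons and 31 passed in none. Of the 11, 8 were lower with nickel and 3 were higher. The 11 genes are 26.2% of the members, against 22.1% of the 5563 genes with a mean RPKM of at least 10 in every comparison and 14.6% of all genes tested. By direction, 19% of the members were called lower and 7.14% higher, against 11.8% and 10.4% of these 5563 genes. The genes with a lower level were the helicase subunit Mcm3, the firing factor Mcm10, the clamp loader subunit Rfc4, the ribonucleotide reductase subunit Rrm1, the cyclin Ccna2, the mitotic kinase Plk1, the kinetochore motor Cenpe and the proliferation marker Mki67. The genes with a higher level were the DNA polymerase delta subunit Pold1, the spindle motor Kif23 and the mitotic exit activator Cdc20. The largest change was that of Rfc4 at 200 µM on day 6, which was 1.59-fold lower.

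Levels are given as RPKM, a read count divided by transcript length and by sequencing depth. Each RPKM, log2 fold change and p-value of a gene was taken from the authors' deposited tables. There, a group of 2 libraries has a single RPKM, so values per library cannot be shown. RPKM and fold changes are scaled differently: the log2 ratio of 2 RPKM values minus the deposited log2 fold change had a median between -0.087 (150 µM, day 6) and -0.006 (100 µM, day 6). Small RPKM differences between groups are therefore read with the fold changes beside them. After a log2 fold change, ± gives a standard error worked back from the deposited p-value. The labels do not say whether replicates were separate cultures, so the p-values measure only the spread between these libraries, which may be technical. In these bulk samples, fewer cells in a cell cycle phase and less RNA per cell cannot be told apart. Depths recovered from the steps of low RPKM values ran from 34.3 to 76.8 megareads per library. The 8 embryonic stem cell markers summed to between 5628 and 6879 RPKM per group, against 6.19 to 12.8 for 8 fibroblast markers, 4.2 to 6.96 for 6 endoderm markers, 1.45 to 2.72 for 4 trophectoderm markers, 0.869 to 1.87 for 5 mesoderm markers and 28.5 to 40.1 for 5 neural markers, most of it from Tubb3. The markers of the labelled cell type were thus high in every group, and those of the other cell types were low. The fibroblast markers Lum and Postn were listed at 0 in both control groups and at 200 µM. Single markers changed with nickel. Of the 8 stem cell markers 6 were called at least once, 3 higher and 3 lower, with Nanog higher in all 6 comparisons (log2 fold change 0.44 to 0.88) and Klf2 lower in 3. Pax6 was higher in 4 and the endoderm marker Gata4 in 3. Krt7 was lower in 4, Thy1 in 3, Kdr in 2 and the endoderm marker Dab2 in 1. Each of these had a control RPKM of at most 10.8. Their part in the results on the 42 genes was not tested.

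The sequence at the transcription starts gives a view of both classes that does not depend on nickel. RefSeq promoter windows (GRCm38.p6), from 250 bases before to 50 bases after a start, were found for 20 of the 25 replication genes and 15 of the 17 mitosis genes. Both strands were searched for the E2F site as TTTGGCGC, TTTCCCGC, TTTGCCGC or TTTCGCGC, for the CHR element bound by DREAM and B-Myb complexes as TTTGAA, and for the box bound by NF-Y as CCAAT. An E2F match stood in 9 replication promoters (45%) and in 1 mitosis promoter (6.67%), that of Cdk1, against 2.78% of all 19467 promoters of genes in the tables. A CHR match stood in 2 replication promoters (10%), those of Mcm2 and Cdc45, and in 12 mitosis promoters (80%), against 16.1% of all promoters. A CCAAT match stood in 15 replication promoters (75%) and in all 15 mitosis promoters searched (100%), against 39% of all. For the 4744 promoters of genes with a mean RPKM of at least 10, the shares were 5.29% for E2F, 12.5% for CHR and 41% for CCAAT. A match describes letters in a window and says nothing on whether a factor was bound there.

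**Figure D1:**
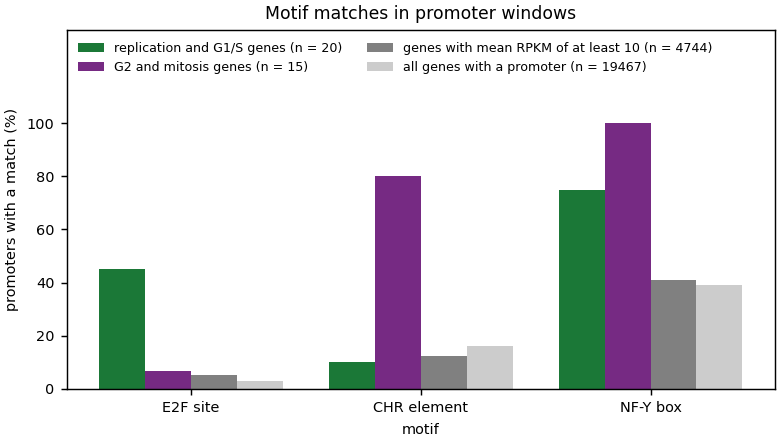
Share of promoter windows with at least 1 match of the E2F, CHR or NF-Y box motif (vertical axis, percent) for the 20 replication and 15 mitosis genes with a window, for 4744 genes with a mean RPKM of at least 10 and for all 19467 genes with a window. The E2F bar is highest for replication genes at 45%, and the CHR bar is highest for mitosis genes at 80%.

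Of the windows, 5 are printed here to show the motif layout of each class beside the values that follow, with capitals marking every match. Mcm3 and Mcm5 are helicase subunits with E2F matches, of which Mcm3 passed the test and Mcm5 did not. Rfc4, the gene with the largest change, had no match of the 3 motifs. Plk1 and Kif23 are the mitosis genes called most often, in opposite directions, and each held 1 CHR and 1 CCAAT match. The windows lie at chr1:20820263-20820562 (minus strand) for Mcm3, chr8:75109259-75109558 (plus) for Mcm5, chr16:23127681-23127980 (minus) for Rfc4, chr7:122159185-122159484 (plus) for Plk1 and chr9:61946750-61947049 (minus) for Kif23.
Mcm3: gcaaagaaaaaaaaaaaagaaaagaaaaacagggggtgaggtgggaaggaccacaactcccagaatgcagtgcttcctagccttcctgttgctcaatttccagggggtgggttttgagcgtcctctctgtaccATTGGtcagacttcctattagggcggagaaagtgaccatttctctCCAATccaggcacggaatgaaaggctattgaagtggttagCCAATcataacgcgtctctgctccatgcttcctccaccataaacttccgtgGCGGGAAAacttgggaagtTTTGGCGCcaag
Mcm5: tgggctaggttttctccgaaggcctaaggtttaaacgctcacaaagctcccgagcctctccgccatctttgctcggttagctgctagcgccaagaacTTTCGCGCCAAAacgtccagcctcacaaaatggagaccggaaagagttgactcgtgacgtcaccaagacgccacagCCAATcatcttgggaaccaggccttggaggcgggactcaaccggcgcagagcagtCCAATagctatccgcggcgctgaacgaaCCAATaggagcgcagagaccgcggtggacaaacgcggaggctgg
Rfc4: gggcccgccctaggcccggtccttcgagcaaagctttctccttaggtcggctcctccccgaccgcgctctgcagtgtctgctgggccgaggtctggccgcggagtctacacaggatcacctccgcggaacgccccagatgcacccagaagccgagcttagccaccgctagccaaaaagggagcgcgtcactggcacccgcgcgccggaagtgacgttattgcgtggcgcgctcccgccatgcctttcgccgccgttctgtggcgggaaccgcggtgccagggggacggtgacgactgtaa
Plk1: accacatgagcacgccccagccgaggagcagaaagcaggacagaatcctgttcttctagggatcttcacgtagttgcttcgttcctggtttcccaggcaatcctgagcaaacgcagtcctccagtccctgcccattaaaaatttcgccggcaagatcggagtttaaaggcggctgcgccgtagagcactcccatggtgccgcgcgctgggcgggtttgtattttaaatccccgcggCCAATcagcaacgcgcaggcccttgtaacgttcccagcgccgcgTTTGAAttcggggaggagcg
Kif23: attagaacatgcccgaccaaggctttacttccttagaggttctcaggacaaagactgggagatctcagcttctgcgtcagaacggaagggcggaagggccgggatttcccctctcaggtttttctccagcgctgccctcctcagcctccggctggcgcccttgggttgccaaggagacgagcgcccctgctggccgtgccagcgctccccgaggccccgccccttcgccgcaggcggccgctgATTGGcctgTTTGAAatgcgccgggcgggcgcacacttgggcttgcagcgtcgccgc
In Mcm5 the first capital run holds 2 E2F matches that overlap, 1 on each strand. Counted from the first transcribed base as 0, the CHR match began at 30 in Plk1 and at 2 in Kif23, and both genes had the CCAAT match just upstream, at -14 and -7. The CCAAT match of Kif23 lies on the strand opposite to the gene. Plk1 and Kif23 thus both carried a CCAAT match followed by a CHR match, but the CCAAT strand and the distance between the matches differed. Whether these matches bear on the levels with nickel was not tested.

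At 100 µM no member passed the test on either day. Of the 19283 genes tested on day 4, 0.576% were higher and 0.462% lower at this threshold, and of 20033 genes on day 6, 1.62% were higher and 1.21% lower. Since only Ccne2 among the members had a mean RPKM below 10, genes with a mean RPKM of at least 10 are a background closer in level, and of these 1.13% and 0.789% were called on day 4 and 2.48% and 2.07% on day 6. By the unadjusted p of the same deposited tables, 2 members on day 4 and 10 on day 6 were under 0.05, which over all genes tested was the case for 7.84% and 11.6%, and over genes with a mean RPKM of at least 10 for 11% and 17%. The submitters' processing notes name DESeq2, and no other count test could be run on these tables.

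At 150 µM on day 4, 2 members were higher and 5 lower, where all genes tested gave 3.44% higher and 3.32% lower and those with a mean RPKM of at least 10 gave 6.69% and 5.63%. The lower genes were Mcm3, Mcm10, Rfc4, Ccna2 and Plk1, and the higher genes were Cdc20 and Kif23. At 150 µM on day 6, only Kif23 was higher and only Plk1 was lower among the members. The shares were 2.36% and 1.99% of all genes tested and 3.95% and 3.59% of those with a mean RPKM of at least 10. Recovered depths of the 150 µM libraries were 34.3 and 61 megareads on day 6 and 45.3 and 53 on day 4. The median standard error of a single member was 0.09 on day 6 and 0.069 on day 4. Fewer calls on day 6 thus do not by themselves show smaller changes.

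At 200 µM on day 4, Pold1 and Kif23 were higher and Mcm3, Mcm10, Rfc4, Ccna2 and Plk1 were lower, against 4.14% and 3.77% of all genes tested. At 200 µM on day 6 no member was higher and Rfc4, Rrm1, Plk1, Cenpe and Mki67 were lower, against 4.99% and 4.48% of all genes tested. Of genes with a mean RPKM of at least 10, 5.94% were called higher and 5.94% lower on day 4 at 200 µM, and 4.8% higher and 6.87% lower on day 6. The members' share called lower was 11.9% in both comparisons, which is 5 of 42 genes.

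**Figure D2:**
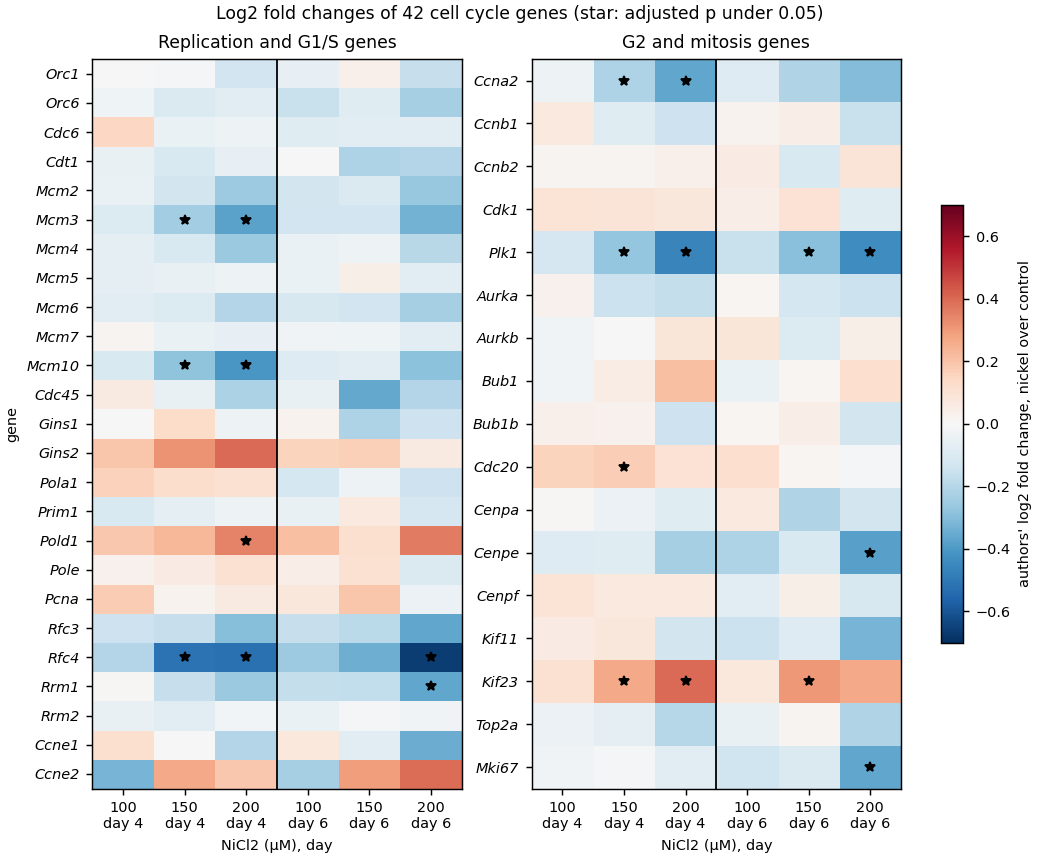
Log2 fold change of nickel over control for each of the 42 genes (rows) in the 6 comparisons (columns, dose in µM and day), taken from the authors' deposited tables, with blue for lower, red for higher and a star for an adjusted p under 0.05. Stars are absent at 100 µM, and the Plk1 row holds the most, with 4.

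Among the origin licensing genes, the Mcm2 to Mcm7 subunits had the highest levels. Their control RPKM on day 4 ran from 103 for Mcm4 to 190 for Mcm7, against 12.7 for the loading factor Cdc6. All 10 licensing genes had a log2 fold change below 0 at 200 µM on both days, with a median of -0.10 on day 4 and -0.20 on day 6, but only Mcm3 passed the test. The neighbouring subunits of the same ring did not pass at any dose. Over the 8 groups, RPKM ranged from 38.6 to 45.3 for Orc1, from 42.4 to 51 for Orc6, from 11.5 to 13.7 for Cdc6 and from 63.7 to 78.6 for Cdt1.

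Mcm3 (chr1:20802968-20820312), whose promoter with a pair of separate E2F matches is printed above, had an RPKM of 162 in day 4 controls and of 148, 133 and 120 at 100, 150 and 200 µM. On day 6 its RPKM was 159 in controls and 144, 136 and 124 at the 3 doses. All nickel groups lay below both controls, and the fold change followed the dose on day 4, whereas on day 6 it was -0.13 at both 100 and 150 µM. The log2 fold change was -0.24 ± 0.06 at 150 µM on day 4 (adjusted p = 0.000698) and -0.37 ± 0.11 at 200 µM (adjusted p = 0.0156). On day 6 it was -0.33 ± 0.13 at 200 µM, with an adjusted p of 0.0779 that missed the threshold.

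Mcm5, its partner in the ring, stayed between 121 and 136 RPKM in all 8 groups. Its log2 fold change at 200 µM was -0.04 ± 0.11 on day 4 and -0.08 ± 0.12 on day 6. Mcm7 was about as flat, with 190 RPKM in day 4 controls and 174 at 200 µM, and 192 and 179 on day 6. Mcm2 (115 to 143 RPKM), Mcm4 (81.9 to 103) and Mcm6 (126 to 155) had log2 fold changes below 0 in all 6 comparisons and no call.

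Of the 4 origin firing genes, Mcm10 was the only one to pass, and it was lower. Mcm10 (chr2:4990724-5012344), which binds the helicase as origins fire, had an RPKM of 49.7 in day 4 controls and of 45, 39.8 and 36 with rising dose. On day 6 it went from 45.5 in controls to 42.6, 40.5 and 36.8. Its log2 fold change was below 0 in every comparison and passed on day 4, at -0.28 ± 0.07 for 150 µM (adjusted p = 0.00349) and -0.41 ± 0.12 for 200 µM (adjusted p = 0.00871).

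Gins2, a subunit of the GINS complex that activates the helicase, was above its control in all 6 comparisons and passed in none. Its RPKM on day 4 was 37.4 in controls and 41.7, 45.1 and 47.2 with rising dose, and on day 6 it was 41.2 in controls and 45.7, 43.5 and 42.5. The day 4 value at 200 µM, 0.40 ± 0.15 on the log2 scale (adjusted p = 0.0669), was the largest positive value of any member. Gins2 shares 118 bases with the oppositely oriented gene Gse1. Its partner Gins1 had log2 fold changes of both signs, at 36.7 to 48.4 RPKM, and the helicase cofactor Cdc45 lay between 23.7 and 32.1 RPKM without a call.

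The polymerase and clamp genes held both the largest decrease and the only called increase of the replication class. Rfc4 (chr16:23113948-23127730), a subunit of the replication factor C complex that loads Pcna, had an RPKM of 61.1 in day 4 controls and of 51.7, 41.5 and 40.7 at the 3 doses. On day 6 its RPKM was 61.9 in controls and 51.7, 45.8 and 38.4 with nickel. Every nickel group was thus below both control groups.

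The log2 fold change of Rfc4 was -0.52 ± 0.11 at 150 µM on day 4 (adjusted p = 5.5e-05), -0.52 ± 0.14 at 200 µM on day 4 (adjusted p = 0.00457) and -0.67 ± 0.13 at 200 µM on day 6 (adjusted p = 3.5e-05). The 150 µM value on day 6, -0.34, did not pass. The last 185 bases of Rfc4 overlap Eif4a2, a gene on the opposite strand with a control RPKM of 329 that was called in 5 comparisons with log2 fold changes from 0.20 to 0.58, above its control. The kit marks strand, but the counting setting is not given in the sources used here, so the share of reads exchanged between these genes was not tested. Rfc3, another subunit of the same complex, had log2 fold changes below 0 in all 6 comparisons, down to -0.36 ± 0.15 at 200 µM on day 6 (adjusted p = 0.0936), and passed in none.

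Pold1 (chr7:44532744-44548815), the catalytic subunit of DNA polymerase delta, had an RPKM of 37.6 in day 4 controls and of 41.7, 43.1 and 46 with rising dose. Its day 6 RPKM was 38.2 in controls and 44.1, 38.9 and 48.6 with nickel. All nickel groups were thus above both controls, and the test passed once, at 200 µM on day 4 with a log2 fold change of 0.35 ± 0.12 (adjusted p = 0.0322). The day 6 value at that dose was of the same size, 0.36 ± 0.13, with an adjusted p of 0.0524. Its partner enzymes Pole and Pola1, of the polymerases epsilon and alpha, stayed within 21.9 to 24.5 and 22.8 to 26.9 RPKM. The primase subunit Prim1 lay between 50.1 and 61.7 RPKM and the clamp Pcna between 163 and 189, both without a call.

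Of the 2 ribonucleotide reductase subunits, which make the building blocks of DNA, only Rrm1 (chr7:102441695-102469771) passed. Its RPKM was 68.5, 67.1, 59.6 and 54.8 from control to 200 µM on day 4 and 70.9, 63, 59.2 and 54.3 on day 6. On day 4 the deposited log2 fold change was 0.01 at 100 µM, and the other 5 values were below 0. The value at 200 µM on day 6 was -0.36 ± 0.12 (adjusted p = 0.0263). Rrm2, the small subunit, lay between 143 and 155 RPKM in all groups, the smallest ratio of highest to lowest level of any member (1.08).

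The cyclin E genes, which start S phase with Cdk2, did not pass at any dose. Ccne1 had an RPKM of 86.5 in day 4 controls and 71.9 at 200 µM, and 84.3 and 65.2 on day 6, with a log2 fold change of -0.35 ± 0.15 at 200 µM on day 6 (adjusted p = 0.12). Ccne2 was the lowest of the members at 2.82 RPKM in day 4 controls. It also had the widest spread, from 2.17 to 3.92 RPKM, and a log2 fold change of 0.39 ± 0.22 at 200 µM on day 6. Ccne2 shares 1852 bases with the oppositely oriented gene Ints8.

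**Figure D3:**
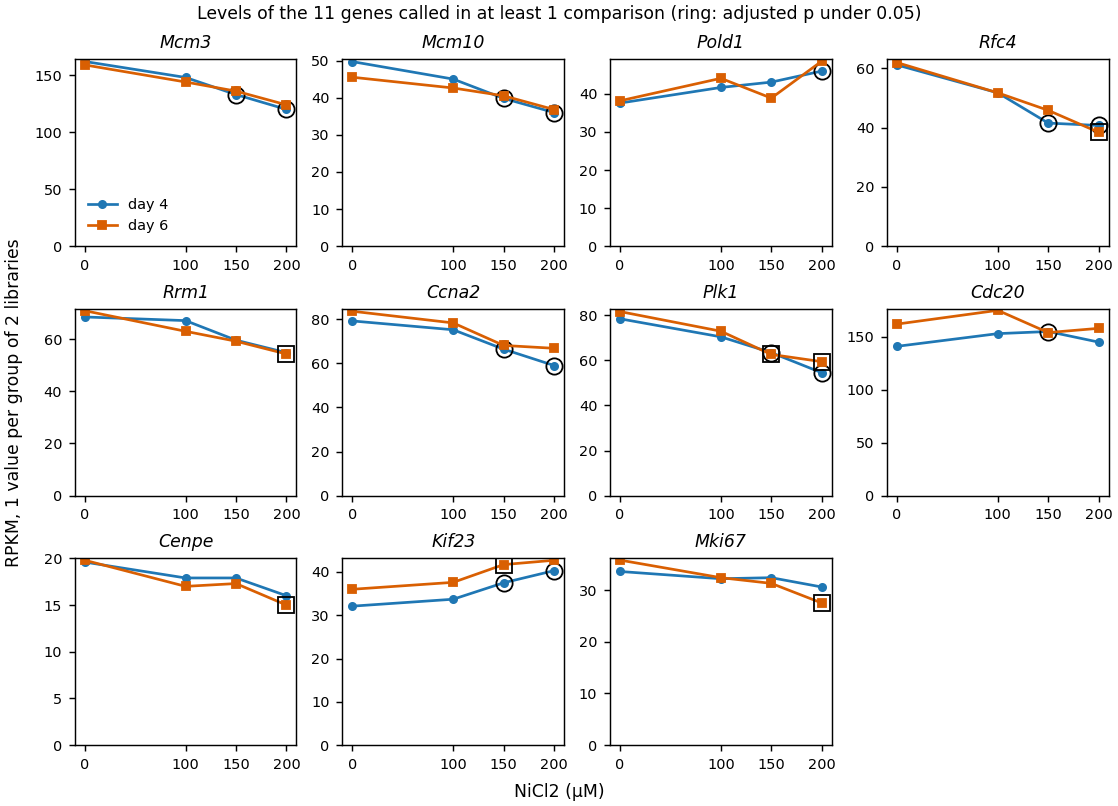
RPKM from the authors' deposited tables (vertical axis, 1 value per group of 2 libraries, no error bar because values per library are not in the tables) against NiCl2 dose (µM) for the 11 genes called at least once, on day 4 (circles) and day 6 (squares), with rings at an adjusted p under 0.05. Rfc4 goes from 61.9 to 38.4 RPKM on day 6 and Kif23 from 32.1 to 40.3 on day 4.

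Among the cyclins and kinases of G2 and mitosis, Plk1 and Ccna2 were lower and the cyclin B genes and Cdk1 did not pass. Plk1 (chr7:122159435-122169884), the kinase that acts on centrosomes, kinetochores and cytokinesis, had an RPKM of 78.4 in day 4 controls and of 70.4, 63.4 and 54.5 with rising dose. The day 6 values were 81.6 in controls and 72.9, 62.6 and 59.4. The level was lower at each higher dose on both days. Plk1 was called in 4 of the 6 comparisons, more than any other member.

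The log2 fold change of Plk1 was -0.27 ± 0.08 at 150 µM (adjusted p = 0.0105) and -0.46 ± 0.12 at 200 µM (adjusted p = 0.00218) on day 4. On day 6 it was -0.29 ± 0.09 (adjusted p = 0.0325) and -0.44 ± 0.12 (adjusted p = 0.00384). The decrease at 200 µM was thus 1.38-fold on day 4 and 1.35-fold on day 6.

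Ccna2 (chr3:36564865-36573038), the cyclin A of S phase and G2, had an RPKM of 79.2, 75.2, 66.4 and 59 from control to 200 µM on day 4. Its day 6 values were 83.6, 78.3, 68.1 and 66.8. It passed on day 4, with -0.22 ± 0.06 at 150 µM (adjusted p = 0.0058) and -0.36 ± 0.10 at 200 µM (adjusted p = 0.00556), and at 200 µM on day 6 it had -0.31 ± 0.11 with an adjusted p of 0.0502. Ccna2 shares 863 bases with the oppositely oriented gene Exosc9, which was called in none of the comparisons.

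Cdk1, the kinase that cyclins A and B activate, stayed between 45.7 and 50.5 RPKM. Ccnb1 lay between 110 and 130 RPKM and Ccnb2 between 93.3 and 113. The Aurora kinase genes were also without a call, with Aurka between 62.2 and 75.1 RPKM and Aurkb between 36.4 and 43.6.

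Of the checkpoint and anaphase genes, Cdc20 (chr4:118432901-118437343), which activates the anaphase-promoting complex, rose at 1 dose. Its RPKM on day 4 was 141 in controls and 153, 155 and 145 with rising dose, and on day 6 it was 162 in controls and 175, 154 and 158. The level did not follow the dose on day 4. On day 6 the deposited log2 fold changes were 0.12, 0.01 and -0.01 with rising dose, so the RPKM of 154, below the control of 162, went with a fold change just above 0. The call at 150 µM on day 4 was a log2 fold change of 0.17 ± 0.06 (adjusted p = 0.039), the smallest change that passed among the members. The spindle checkpoint kinases Bub1 (36.6 to 42.4 RPKM) and Bub1b (89.1 to 103) were not called.

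Of the spindle and centromere genes, Kif23 was higher and Cenpe lower. Kif23 (chr9:61917278-61946799), a motor protein of the central spindle that is needed for cytokinesis, had an RPKM of 32.1 in day 4 controls and of 33.7, 37.5 and 40.3 with rising dose. The day 6 values were 36 in controls and 37.6, 41.7 and 42.7. Both higher doses lay above both controls. The fold change followed the dose on day 4, and on day 6 it was no larger at 200 than at 150 µM.

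Kif23 passed at 150 µM on day 4 with a log2 fold change of 0.27 ± 0.07 (adjusted p = 0.0061), at 200 µM on day 4 with 0.39 ± 0.11 (adjusted p = 0.00732) and at 150 µM on day 6 with 0.30 ± 0.09 (adjusted p = 0.0205). At 200 µM on day 6 the value was 0.27, without a call. Kif11, the motor that separates the spindle poles, had an RPKM of 52.2 in day 6 controls and 41.1 at 200 µM, a log2 fold change of -0.33 ± 0.12 with an adjusted p of 0.0534.

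Cenpe (chr3:135212563-135273540), the motor that moves chromosomes along the spindle, had an RPKM of 19.6, 17.9, 17.9 and 16 from control to 200 µM on day 4 and of 19.8, 17, 17.3 and 15 on day 6. All nickel groups lay below both controls, and the call came at 200 µM on day 6 with -0.38 ± 0.12 (adjusted p = 0.0255). Cenpf, a large kinetochore protein, stayed between 18.2 and 19.9 RPKM. Cenpa, the histone variant of centromeres, lay between 80.6 and 106 RPKM and was not called.

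Of the 2 genes of chromosome structure, Mki67 passed and Top2a did not. Mki67 (chr7:135689788-135716379), which coats mitotic chromosomes and is used as a marker of cycling cells, had an RPKM of 33.6, 32.2, 32.4 and 30.6 on day 4 and of 35.8, 32.4, 31.3 and 27.5 on day 6. Its call was at 200 µM on day 6, with -0.36 ± 0.11 (adjusted p = 0.0125). Top2a, the topoisomerase that untangles sister chromatids, had 187 RPKM in day 6 controls and 159 at 200 µM, without a call.

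The medians of the replication and mitosis genes were set side by side without a test of their difference. At 200 µM on day 4 the median log2 fold change was -0.06 for replication genes and -0.09 for mitosis genes, against -0.02 for 5845 genes with a mean RPKM of at least 10. At 200 µM on day 6 the medians were -0.16 and -0.13 against -0.06. At 100 µM the replication median was -0.03 on day 4 and -0.05 on day 6, beside mitosis medians of 0.02 and 0.01. At 150 µM the replication median was -0.05 on day 4 and -0.08 on day 6, beside 0.00 and -0.09. Genes with a mean RPKM of at least 10 had medians of 0.02 and -0.01 at 100 µM and of 0.00 and -0.01 at 150 µM. The 2 class medians thus had opposite signs at 100 µM on both days. Each was smaller in size than the median standard error of a single member, which is not the error of a class median. At 100 µM on day 6, 72% of replication genes and 47.1% of mitosis genes were below 0, against 54.4% of genes with a mean RPKM of at least 10. The median standard error of a single member ran from 0.067 to 0.122 over the comparisons.

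**Figure D4:**
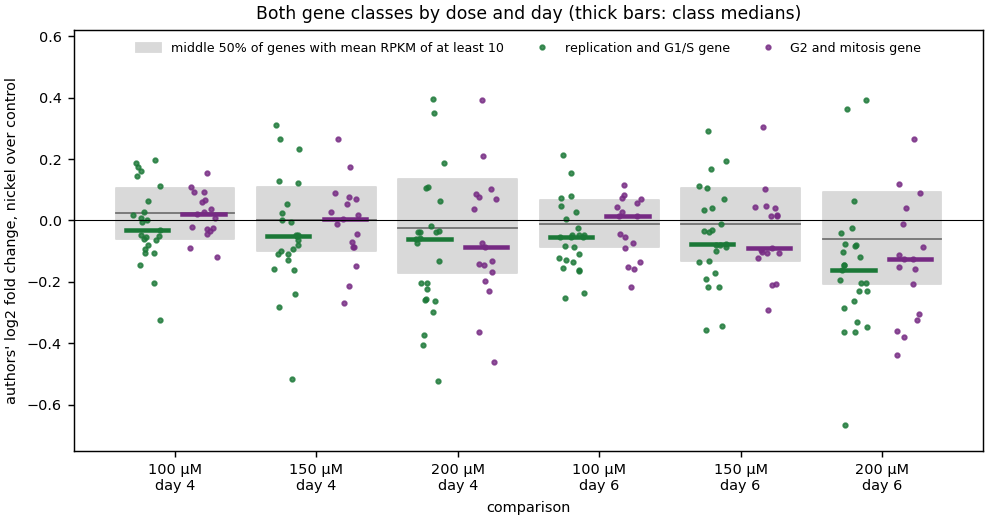
Log2 fold change from the authors' deposited tables (vertical axis) of each replication gene (green) and mitosis gene (purple) in the 6 comparisons, with thick bars for class medians and grey boxes for the middle 50% of genes with a mean RPKM of at least 10 (thin line, their median). The class medians at 200 µM on day 6 are -0.16 and -0.13.

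The number with a log2 fold change below 0 was 21, 25 and 29 of 42 at 100, 150 and 200 µM on day 4, and 26, 26 and 35 on day 6. The count thus did not change from 100 to 150 µM on day 6, while the median log2 fold change of the members went from -0.051 to -0.078. The background also shifted with dose. Of genes with a mean RPKM of at least 10, 42%, 49.5% and 54.3% were below 0 on day 4 and 54.4%, 53% and 61.4% on day 6, where the members had 83.3% at 200 µM. The replication class had 22 of 25 genes below 0 there, and the mitosis class had 13 of 17.

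A stepwise course with dose was common on day 4 and less so on day 6. On day 4 the log2 fold change of 22 members (52.4%) was lower at each higher dose, and that of 8 members (19%) was higher at each dose. Of the 5563 genes with a mean RPKM of at least 10 in every comparison, 41.5% fell and 22.3% rose in this way. On day 6 the counts were 10 (23.8%, against 23.3%) and 2 (4.76%, against 11.5%). The 3 doses of a day share their controls, and no test between doses was made. The RPKM at 200 µM, which needs no control, was below that at 100 µM for 32 members (76.2%) on day 4 and 36 (85.7%) on day 6, against 66.2% of the highly expressed genes on each day.

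The size of the changes was limited. The 95% interval of the log2 fold change lay within a 1.5-fold change in either direction for 34 of 42 members at 200 µM on each day, and for 40 at 150 µM on each day. At 100 µM it did so for 41 members on day 4 and for all 42 on day 6. The same held for 77.8% and 79.1% of genes with a mean RPKM of at least 10 at 200 µM on day 4 and day 6.

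Day 4 and day 6 have separate controls, so their values can be set against each other. The sign of the log2 fold change was the same on both days for 31 members at 100 µM, 31 at 150 µM and 36 at 200 µM, which is 73.8%, 73.8% and 85.7%, against 62.3%, 71.7% and 80.7% of the highly expressed genes. Across the 42 genes the Pearson correlation between days was 0.69, 0.70 and 0.87 at the 3 doses, and 0.55, 0.66 and 0.80 over the 5563 genes, as a description of genes that share libraries. Of the members, 13 were below control in all 6 comparisons and 3, Gins2, Pold1 and Kif23, were above it in all 6. These are 31% and 7.14% of the members, against 19.9% and 16.9% of the highly expressed genes.

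The difference between the days was tested for each dose with a z test on both fold changes, adjusted by the Benjamini-Hochberg method over all genes tested on both days. No member passed at any dose, where 0.0374%, 0.0745% and 0.0476% of all genes did at 100, 150 and 200 µM. By unadjusted p, 2, 1 and 0 members were under 0.05, against 2.99%, 3.15% and 1.95% of all genes. These were Pola1 and Kif11 at 100 µM, with day 6 minus day 4 differences of -0.29 ± 0.12 and -0.21 ± 0.10 on the log2 scale, and Gins1 at 150 µM with -0.34 ± 0.17. For Mki67 at 200 µM the log2 fold change was -0.08 on day 4 and -0.36 on day 6, a difference of -0.29 ± 0.15 with an unadjusted p of 0.0563, so the call on day 6 alone does not show a difference between the days.

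**Figure D5:**
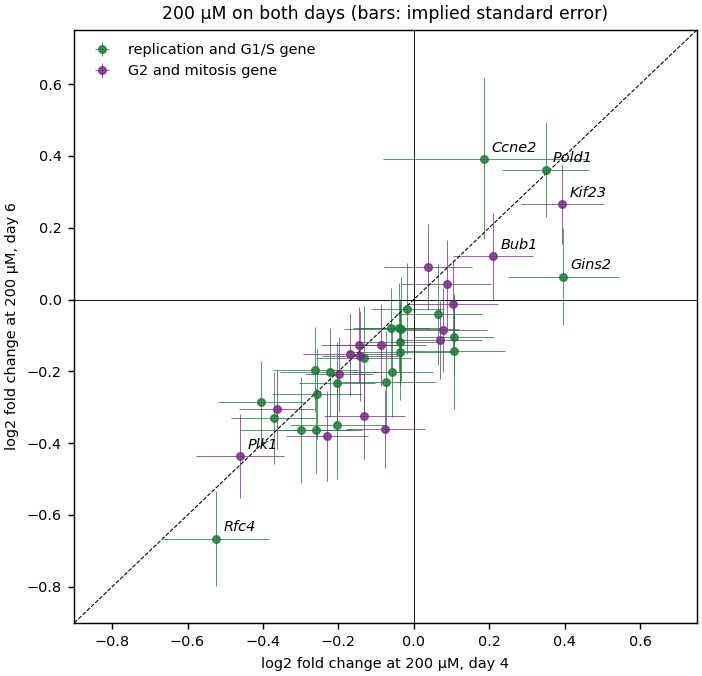
Log2 fold change at 200 µM on day 4 (horizontal axis) against day 6 (vertical axis) for the 42 genes, from the authors' deposited tables, with bars for the implied standard error and a dashed line of equal values. Of the 42 points, 36 have the same sign on both days, with Rfc4 at the lower left and Pold1 and Kif23 at the upper right.

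Without nickel the members differed little between the days. The day 6 control over the day 4 control ran from 0.893 to 1.18 with a median of 1.02, against a median of 1.01 over the highly expressed genes. In day 4 controls the levels per length ran from 2.82 RPKM for Ccne2 to 190 for Mcm7, with Top2a at 181, Pcna at 172 and Mcm3 at 162 next to it. The order at the top rests on 1 value per group, so the spread between libraries is unknown. Mcm7 also hosts the miRNA genes Mir106b, Mir25 and Mir93 on its own strand.

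Other genes of the same processes were mostly without a call as well. The counts below take any of the 6 comparisons, for which the share was 22.1% of the highly expressed genes and 14.6% of all genes tested. Of 48 further replication genes, 5 passed in at least 1 comparison, 2 higher and 3 lower. Ticrr, which helps load Cdc45 at origins, rose from 16 RPKM in day 4 controls to 21.2 at 150 µM and 23.1 at 200 µM, with log2 fold changes of 0.45 ± 0.07 (adjusted p = 5.33e-08) and 0.60 ± 0.14 (adjusted p = 0.000539). On day 6 it rose from 16.2 to 23.5 and 25.8 RPKM. Rpa1, which coats single-stranded DNA, rose at 150 µM on both days, while the chromatin assembly subunits Chaf1a and Chaf1b and the maintenance methyltransferase Dnmt1 fell at 200 µM on day 6.

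Of 73 further mitosis genes, 10 passed in at least 1 comparison, 4 higher and 6 lower. The largest change was in Pttg1, which encodes securin, the protein that holds separase inactive until anaphase. Its RPKM was 111 in day 4 controls and 82.1, 57 and 36 with rising dose, and 119 in day 6 controls and 104, 68.7 and 45. The level was lower at each higher dose on both days. The log2 fold change at 200 µM was -1.53 ± 0.15 on day 4 (adjusted p = 4.8e-20) and -1.33 ± 0.13 on day 6 (adjusted p = 7.72e-22), which is 2.89-fold and 2.52-fold lower. No member of the 42 changed as much.

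The other mitosis genes changed less. Kif20a, a motor of the central spindle like Kif23, fell, with -0.30 ± 0.11 at 200 µM on day 4 (adjusted p = 0.0466) and -0.41 ± 0.12 on day 6 (adjusted p = 0.0105). Ckap5, which promotes microtubule growth, fell at 200 µM on both days, Ndc80 of the kinetochore fell at 200 µM on day 6 and Nek2 of the centrosome at 200 µM on day 4. Haspin, a mitotic kinase of histone H3, fell at 150 µM on day 4.

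Of 33 cell cycle regulators, 7 passed in at least 1 comparison, 3 higher and 4 lower. Cdkn1c, an inhibitor of cyclin-dependent kinases, fell from 20.5 RPKM in day 6 controls to 9.24 at 150 µM and 8.4 at 200 µM, with a log2 fold change of -1.26 ± 0.18 at 200 µM (adjusted p = 7.3e-10). Cdkn1a, which encodes the p21 inhibitor that p53 induces, was below its control in all 6 comparisons and passed at 150 µM on both days. Its RPKM at 150 µM was 33.8 on day 4 and 31.3 on day 6, against 42.7 and 46.3 in controls. Ccnd2, a D-type cyclin, rose at 150 µM on both days from a low level, 1.4 to 2.08 RPKM on day 4. The inhibitor gene Cdkn2a rose and the E2F family genes E2f4 and E2f6 fell at 200 µM on day 6. On that day Cdkn2a had 4.54 RPKM in controls, 3.97 at 150 µM and 8.79 at 200 µM. On day 4 it had 7.53 RPKM in controls and 8.71 at 200 µM, without a call.

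Of 26 checkpoint and repair genes, 10 passed in at least 1 comparison, 4 higher and 6 lower. Trp53bp1, which marks DNA breaks for repair, fell in 5 of the 6 comparisons, from 10.9 to 7.02 RPKM at 200 µM on day 6 with a log2 fold change of -0.61 ± 0.12 (adjusted p = 2.96e-05). The histone gene H2ax rose in 4, from 300 to 369 RPKM at 100 µM on day 4 with 0.34 ± 0.07 (adjusted p = 7.53e-05). H2ax was thus called at the dose where none of the 42 members was, as were Pttg1 on day 4 and Trp53bp1 on day 6. At 100 µM on day 4, 1.13% of genes with a mean RPKM of at least 10 were called higher and 0.789% lower. The absence of calls among the members on that day is thus close to the background share. Fanci, of the crosslink repair pathway, rose in 3 comparisons, Brca1 in 2 and Fanca in 1. Smc3, of the cohesin ring, fell at 200 µM on both days, from 72.3 to 53.6 RPKM on day 4 and from 66 to 50.2 on day 6. The other cohesin genes of the list, Rad21 and Smc1a, and the repair genes Chek2 and Fancd2 each fell in 1 comparison.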

How the data were processed

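Libraries were made with a stranded mRNA kit, per the labels' protocols. The submitters' processing notes name STAR, DESeq2 and the build GRCm38, with versions, settings and counting strand not given in the sources used here. Per the file headers, the authors' deposited tables hold RPKM per group and, for each nickel group against its control, log2 fold changes with raw and adjusted p-values. A gene listed with log2 fold change 0 and p-value 1 was treated as untested.

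The 42 members, the other gene lists and the tests were chosen with earlier results of these data known. Members were called at the authors' adjusted p under 0.05. Called members are given in full and others by range or in the text. Of each other pathway list, the 6 genes called most often are named. Other called genes of the checkpoint list, and markers, were named after their values were seen. Standard errors and 95% intervals take the ratio of fold change to error as normal. Library depths were searched that put low RPKM values of 2439 single-exon genes (GENCODE M21) on whole-read steps to within 0.8%, which placed 98.1 to 100% of the values per group. Which replicate has which depth is not known. The day test was checked on simulated data with day differences larger than that of any member. The check thus does not show how often differences of the members' size would be found. Python 3.11.15, pandas 2.3.3, numpy 2.4.6 and scipy 1.17.1 were used. Promoters came from RefSeq (GRCm38.p6) for 35 of the 42 members.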

Additional observations from a re-analysis of the deposited data

How the results depend on the processing

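No paired analysis was possible because the tables give 1 value per group, so the replicate letter could not be used as a block, and leaving out a library was not run. Counts of called members depended on the threshold. At an adjusted p under 0.01, mitosis genes called at 150 µM on day 4 went from 4 to 2, replication genes at 200 µM on day 4 from 4 to 2, mitosis genes at 150 µM on day 6 from 2 to 0, replication genes at 200 µM on day 6 from 2 to 1 and mitosis genes there from 3 to 1. At 0.1, replication genes went from 3 to 5 at 150 µM on day 4, and on day 6 from 0 to 3 at 100 µM, from 0 to 1 at 150 µM and from 2 to 6 at 200 µM, where mitosis genes went from 3 to 5. With an absolute log2 fold change of at least 0.5 required, only Rfc4 passed, giving 1 replication gene each at 150 and 200 µM on day 4 and at 200 µM on day 6, and 0 mitosis genes at 150 and 200 µM on both days. Adjusting over genes with an RPKM of at least 1 gave 1 replication gene at 100 and at 150 µM on day 6 and 5 mitosis genes at 200 µM on day 6. Adjusting over all genes tested moved no count by over 1.5 times. All 21 calls of single members passed under both adjustments, and 9 of the 21 were lost at 0.01. Fold changes from RPKM ratios with a pseudocount of 0.1 or 1, or centred on the median gene, kept the sign of all 21. Class medians moved by less than the median standard error of a single member under every alternative. The alternatives included leaving out the cyclin E genes, Ccna2, Cdk1, Top2a and Mki67. The error of a single member is not that of a class median, so this is a wide bound. With RPKM ratios (pseudocount 0.1), 2 of the medians still changed sign, those of mitosis genes at 100 and 150 µM on day 4 (0.02 to -0.02 and 0.00 to -0.04), and at 150 µM on day 6 the medians went from -0.08 to -0.16 for replication and from -0.09 to -0.18 for mitosis genes. Motif counts from 150 bases before the start were 13 instead of 15 for CCAAT in replication genes and otherwise the same.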
